A study of Homo sapiens with 6 samples.

Results

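The genes described here are the SOX factors and the neural lineage transcription factors of the proneural bHLH, POU, LIM homeodomain, NKX, MYT and ZIC families, in HEK293T cells with and without valproic acid (VPA). They were chosen by symbol (SOX with a number, NEUROD1 to NEUROD6, NEUROG1 to NEUROG3, ASCL with a number, OLIG1 to OLIG3, POU3F and POU4F, LHX2 to LHX9, NKX, MYT1 and MYT1L, and ZIC with a number), and 69 of the 47470 genes in the count files matched. HEK293T is an established line from human embryonic kidney with the SV40 large T antigen, and VPA is an inhibitor of histone deacetylases, the enzymes that remove acetyl groups from histones. RNA was sequenced from 3 libraries of untreated wild-type cells and 3 libraries of cells kept in 1 mM VPA for 1 day, all of the same line. No source used here says whether the replicates were separate cultures, so p-values measure the spread between these libraries, which may be technical. Counts on genes were between 18622267 and 18828495 per library. All 1437 genes of chromosome X are listed at 0 in every library, and with them members such as SOX3 and POU3F4, which were therefore not measured.

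These factors bind DNA and set cell identity in the embryo, above all in the nervous system. SOX proteins bind through an HMG box, and their subgroups act in turn: the B1 subgroup (SOX1, SOX2, SOX3) keeps neural progenitors dividing, the B2 subgroup (SOX14, SOX21) counteracts it, and the C subgroup (SOX4, SOX11, SOX12) acts in young neurons. Proneural bHLH factors (ASCL, NEUROG, NEUROD) start neuronal differentiation as dimers with E proteins at the E-box, while POU, LIM homeodomain and NKX factors give regions and neuron types their identity, and ZIC zinc finger factors act in the early neural plate and neural tube.

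Promoter sequences are shown for the 4 up-regulated members of smallest p that could be shown and have an entry in the promoter table (NKX1-2, SOX21, MYT1 and NKX2-1). ZIC2, the member of smallest p among those that fell, was added after the values were seen. Each run holds 250 bases before and 50 after the RefSeq start, on GRCh38.p14 and in the direction of the gene. The positions are chr10:124449986-124450285 on the minus strand for NKX1-2, chr13:94712496-94712795 on the minus strand for SOX21, chr20:64164202-64164501 on the plus strand for MYT1, chr14:36520183-36520482 on the minus strand for NKX2-1 and chr13:99981534-99981833 on the plus strand for ZIC2. Capitals mark matches to the E-box CANNTG, which reads the same way on both strands.
NKX1-2: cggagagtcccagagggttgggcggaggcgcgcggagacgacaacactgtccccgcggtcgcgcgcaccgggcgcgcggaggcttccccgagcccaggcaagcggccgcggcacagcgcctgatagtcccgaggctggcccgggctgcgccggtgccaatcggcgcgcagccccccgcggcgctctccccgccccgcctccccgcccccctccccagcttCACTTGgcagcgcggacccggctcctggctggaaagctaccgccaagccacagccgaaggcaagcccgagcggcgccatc
SOX21: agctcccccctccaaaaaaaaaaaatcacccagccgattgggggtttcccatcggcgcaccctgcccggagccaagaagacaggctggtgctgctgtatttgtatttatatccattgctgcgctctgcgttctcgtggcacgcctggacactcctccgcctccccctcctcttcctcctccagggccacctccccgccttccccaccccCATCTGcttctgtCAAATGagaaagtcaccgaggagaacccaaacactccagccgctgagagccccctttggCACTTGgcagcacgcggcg
MYT1: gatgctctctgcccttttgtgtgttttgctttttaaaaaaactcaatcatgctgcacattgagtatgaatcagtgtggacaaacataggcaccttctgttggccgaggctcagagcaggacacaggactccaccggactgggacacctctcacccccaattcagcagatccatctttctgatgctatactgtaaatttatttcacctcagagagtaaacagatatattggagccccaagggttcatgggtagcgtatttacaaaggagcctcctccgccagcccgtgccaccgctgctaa
NKX2-1: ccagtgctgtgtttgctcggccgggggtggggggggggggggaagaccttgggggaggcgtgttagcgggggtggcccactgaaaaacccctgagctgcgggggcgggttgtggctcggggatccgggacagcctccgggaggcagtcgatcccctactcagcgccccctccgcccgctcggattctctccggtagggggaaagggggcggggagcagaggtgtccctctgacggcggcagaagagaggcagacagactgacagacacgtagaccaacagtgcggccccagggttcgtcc
ZIC2: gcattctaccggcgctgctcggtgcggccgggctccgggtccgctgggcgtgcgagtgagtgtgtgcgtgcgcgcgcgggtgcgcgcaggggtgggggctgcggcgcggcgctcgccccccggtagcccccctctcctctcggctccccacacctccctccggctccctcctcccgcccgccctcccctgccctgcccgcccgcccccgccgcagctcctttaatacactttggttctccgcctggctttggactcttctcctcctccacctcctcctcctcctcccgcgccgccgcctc

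The E-box occurred 3 times in the SOX21 window and 1 time in that of NKX1-2. The windows of MYT1, NKX2-1 and ZIC2 held none, which says only that these letters are not in these 300 bases. Of the members that passed the filter on low counts, 30 had a promoter entry, and 17 of these (56.7%) held an E-box, against 60.1% of the 11739 tested genes with an entry. The SOX motif CATTGT, sought on both strands, was in 2 of the 30 (6.67%, against 6.11% of tested genes), in SOX5 and NKX2-4. The homeodomain motif TAATTA was in none of the 30, against 2.07% of tested genes. The GC box GGGCGG, sought on both strands, was in 20 of the 30 (66.7%, against 69.7%). CpG dinucleotides ranged widely among the windows shown, with 41 in NKX1-2 and 35 in ZIC2 but 6 in MYT1. The median was 24.0 over the 30 members and 26.0 over the tested genes. By these letters the up-regulated NKX1-2 and the lower ZIC2 had GC-rich starts alike, at 76.3% and 75.0% G and C.

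After VPA, NKX1-2, NKX2-1, NKX2-2, NKX2-8, SOX21, POU3F1, POU4F2, LHX9 and MYT1 were among the members that rose past the fold threshold of the study, while ZIC2, ZIC5, SOX4, SOX12 and NKX2-5 fell by less than it. Counts were tested with edgeR's quasi-likelihood test over all genes that passed its filter on low counts, 15298 in all, with Benjamini-Hochberg adjustment over them. A gene was called up-regulated or down-regulated where its adjusted p was under 0.05 and its log2 fold change reached 1 or -1, the thresholds of the study, and is called higher or lower where it passed the adjusted p alone. Normalized counts below are scaled by TMM to the mean library. Of the 69 members 38 passed the filter, 21 had counts but too few, and 10 are listed at 0 in every library. One of the 38, POU4F2, passed only through the VPA-treated libraries. Of those 38, 10 were up-regulated (26.3%), beside 12.0% of all tested genes. None was down-regulated by edgeR, or had a log2 fold change of -1 or less at an unadjusted p under 0.05, and DESeq2 also gave 0, beside 0.503% of all tested genes. By the adjusted p alone 25 members were higher and 5 lower, beside 32.9% higher and 30.0% lower over all tested genes. In those 25 every VPA-treated library lay above every untreated one and in the 5 every one lay below, which was so for 34.8% and 31.0% of all tested genes. The median log2 fold change was 0.60 over the 38 members and 0.0058 over all tested genes.

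**Figure D1:**
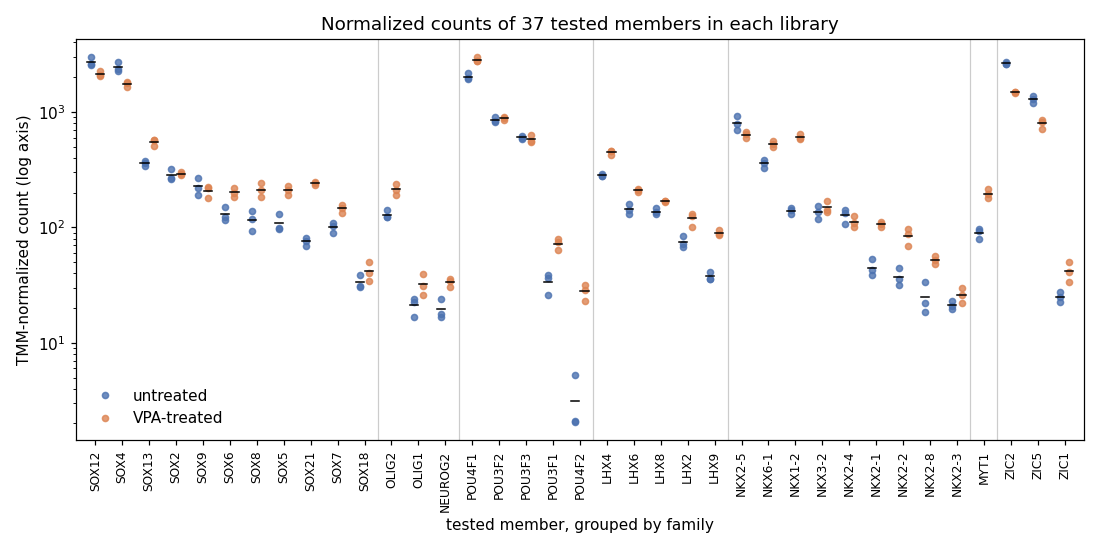
TMM-normalized counts (log axis) of 37 of the 38 tested members, by family and in order of their mean within it, with a point per library, untreated in blue and VPA-treated in orange, and a black line at the mean of 3. NKX1-2 stands out, with untreated libraries at 131 to 146 and VPA-treated libraries at 578 to 639.6, and ZIC2 has its VPA-treated libraries below its untreated ones.

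Among the SOX genes the B2 factor SOX21 rose most and the C factors SOX4 and SOX12 fell. SOX21, which counteracts the B1 factors in neural progenitors, had 80.8, 69.1 and 76.6 normalized counts in untreated cells and 233, 244 and 245 in VPA-treated cells. The groups were far apart and each was tight. The log2 fold change was 1.67 (standard error, SE, 0.104, adjusted p = 8.92e-12, edgeR), a 3.18-fold increase, and SOX21 was the 1 up-regulated gene of the 11 SOX genes tested. SOX21 is a minus-strand gene at chr13:94709622-94712545 (positions here and below are those of RefSeq on GRCh38.p14). The transcript SOX21-AS1 overlaps it on the plus strand and had 1286 counts, with a log2 fold change of 1.53. The libraries were strand-specific, but the strand setting of the counting is not given in the sources used here, so reads of the pair may not be told apart.

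SOX2, the B1 factor of neural and pluripotent stem cells, had 319.9, 261 and 269 normalized counts in untreated cells and 287, 283 and 303 in VPA-treated cells. The groups overlapped, and the log2 fold change was 0.04 (SE 0.084, adjusted p = 0.701, edgeR). SOX1 had 1 count in the 6 libraries and SOX14 also 1, so neither could be followed.

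SOX4 (chr6:21593751-21598619) had 2682, 2361 and 2269.5 normalized counts in untreated cells and 1821, 1772 and 1651 in VPA-treated cells. SOX4 acts in the survival and differentiation of young neurons and in many other tissues. Its log2 fold change was -0.48 (SE 0.056, adjusted p = 3.99e-07, edgeR). SOX12 (chr20:325552-330224), of the same subgroup, had 2984, 2584 and 2532 and then 2279.7, 2056 and 2106, with a log2 fold change of -0.33 (SE 0.057, adjusted p = 5.58e-05, edgeR). With scaling by ribosomal protein genes SOX12 was at -0.06 (adjusted p = 0.446, edgeR). In both genes untreated replicate 1 was the highest library and the groups did not overlap. SOX11, the third of the subgroup, had 0 counts in untreated cells and 3 in VPA-treated cells.

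The D subgroup moved the other way. SOX5, SOX6 and SOX13 lack an activation domain of their own and modify the action of other SOX proteins, among others in cartilage and in the oligodendrocyte lineage. All 3 were higher after VPA, with no overlap between the groups, beside 32.9% higher and 34.8% without overlap upward over all tested genes. The share higher was 52.9% among tested genes with a mean of 50 to 200 normalized counts, the class of SOX5 and SOX6. It was 35.2% between 200 and 1000, the class of SOX13. SOX5 had 99.4, 129.8 and 96.6 normalized counts and then 229, 191 and 213, with a log2 fold change of 0.96 (SE 0.116, adjusted p = 3.06e-07, edgeR), just under the fold threshold, and past it at 1.10 without untreated replicate 2 and at 1.02 without VPA-treated replicate 2. SOX6 had a log2 fold change of 0.64 (adjusted p = 3.02e-05) and SOX13 of 0.60 (adjusted p = 1.60e-07) in the same fit. C11orf58 overlaps SOX6 on the opposite strand and is far more abundant, with 22097 counts against 1001, and had a log2 fold change of -0.13.

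Of the E subgroup, which acts in neural crest, glia and gonad, SOX8 was higher and SOX9 did not pass the test. SOX8 went from 139, 92.1 and 119 to 243, 209 and 185 normalized counts, a log2 fold change of 0.87 (SE 0.130, adjusted p = 9.70e-06, edgeR), and 1.00 without untreated replicate 1. SOX9 had 269, 218 and 191 and then 221, 224 and 179, overlapping groups with a log2 fold change of -0.12 (SE 0.116, adjusted p = 0.386, edgeR). SOX10, the factor of neural crest and oligodendrocytes, is listed at 0 throughout. Of the F subgroup, known from endothelium and endoderm, SOX7 was higher, with a log2 fold change of 0.54 (adjusted p = 0.000297, edgeR). PINX1 overlaps SOX7 on the same strand, with a log2 fold change of -0.07. SOX18 had a log2 fold change of 0.31 (SE 0.196, adjusted p = 0.169, edgeR), and SOX17 is listed at 0.

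Levels between genes can be compared only per length, here as RPKM (reads per kilobase of exon, scaled to depth) after TMM scaling, with exon lengths from GENCODE. On this scale SOX12 had 30.9 ± 2.8 RPKM and SOX4 26.7 ± 2.4 in untreated cells (SD, n = 3), and the next SOX gene, SOX2, had 6.02 ± 0.68. After VPA the values were 24.5 ± 1.3 for SOX12, 19.2 ± 0.96 for SOX4 and 6.19 ± 0.22 for SOX2. SOX12 and SOX4 together made up 75.3% to 76.8% of the summed SOX level before and 63.0% to 64.2% after VPA, ranges that do not overlap (p = 0.1 in a two-sided exact permutation test, the smallest that 3 libraries against 3 allow). The summed level of the SOX genes went from 75.7 ± 6.7 to 68.8 ± 2.6 RPKM (SD, n = 3 each), and the groups overlapped (p = 0.2, same test, exact).

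ZIC2 and ZIC5 had the lowest log2 fold changes of the tested members. ZIC2, at chr13:99981784-99986765, had 2732, 2589 and 2578 normalized counts in untreated cells and 1492, 1457 and 1496 in VPA-treated cells. Mutations of ZIC2 are a known cause of holoprosencephaly, a failure of the forebrain to divide. The fall to 0.56 of the untreated level, a log2 fold change of -0.83 (SE 0.043, adjusted p = 4.28e-13, edgeR), did not reach the fold threshold. ZIC5 (chr13:99962964-99971909), its neighbour 9875 bases away on the opposite strand, fell with it, from 1362, 1289 and 1206 to 816, 856 and 712, a log2 fold change of -0.69 (SE 0.063, adjusted p = 6.28e-09, edgeR). ZIC1 differed from this pair in level and direction, with 22.8, 25.1 and 27.3 normalized counts in untreated cells and 33.5, 41.4 and 49.8 in VPA-treated cells. Its log2 fold change was 0.73 (SE 0.208, adjusted p = 0.00437, edgeR), and DESeq2 gave an adjusted p of 0.0633. ZIC4, which overlaps ZIC1, had 5 counts in all.

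ZIC2 was the most abundant member per length in untreated cells, at 42.7 ± 1.4 RPKM (SD, n = 3), with no overlap with SOX12 next to it. After VPA it was at 24.1 ± 0.35, overlapping in range with SOX12, and POU4F1 was first at 33.3 ± 1.5. The summed ZIC level went from 58.2 ± 2.2 to 33.8 ± 0.60 RPKM (SD, n = 3 each), and ZIC2 and ZIC5 made up at least 98.8% of it in every library. The decrease of the family is thus that of this pair.

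**Figure D2:**
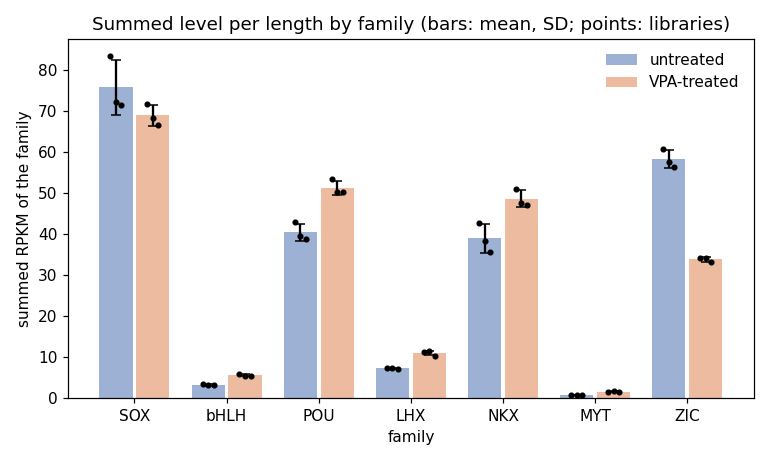
Summed level per family in RPKM, with bars at the mean of 3 libraries, error bars of 1 SD and a point per library, untreated in blue and VPA-treated in orange. The ZIC sum goes from 58.2 to 33.8, the NKX and POU sums lie higher in VPA-treated cells, and the SOX sums overlap.

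The NKX homeobox genes, which pattern the ventral neural tube, heart, lung, gut and other organs, held 5 of the 10 up-regulated members. NKX1-2, a factor of posterior progenitors in the embryo, had 146, 131 and 142 normalized counts in untreated cells and 578, 592 and 639.6 in VPA-treated cells. It was the member of smallest p, with a 4.32-fold increase and a log2 fold change of 2.11 (SE 0.079, adjusted p = 2.13e-15, edgeR). It lies at chr10:124445243-124450035. Its share of the summed NKX level in RPKM was between 5.68% and 6.61% in untreated cells and between 18.9% and 22.6% in VPA-treated cells.

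NKX2-1 (chr14:36516397-36520232), the factor of thyroid, lung and ventral forebrain, had 42.4, 53.4 and 38.8 normalized counts in untreated cells and 111, 108 and 101 in VPA-treated cells. The groups did not overlap, and the log2 fold change was 1.24 (SE 0.144, adjusted p = 1.68e-07, edgeR). NKX2-8 (chr14:36580004-36582614), 59772 bases away, had 18.6, 22.0 and 33.6 and then 56.5, 48.2 and 52.7, with a log2 fold change of 1.08 (SE 0.205, adjusted p = 9.83e-05, edgeR). These neighbours rose together, but NKX2-8 fell under the fold threshold without untreated replicate 1 (0.91) or untreated replicate 2 (just under 1). SFTA3 overlaps NKX2-1 on the same strand and had a log2 fold change of 0.97.

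NKX2-2 (chr20:21511017-21522689), which acts in the ventral spinal cord, in oligodendrocytes and in pancreatic beta cells, had 44.5, 31.4 and 35.7 normalized counts in untreated cells and 96.8, 68.4 and 87.1 in VPA-treated cells. Its log2 fold change was 1.17 (SE 0.174, adjusted p = 4.91e-06, edgeR). Its neighbour NKX2-4, 113491 bases away on chromosome 20, did not share this, with 134, 142 and 107 and then 125, 100.2 and 109, overlapping groups with a log2 fold change of -0.20 (SE 0.124, adjusted p = 0.172, edgeR). NKX6-1, a partner of NKX2-2 in ventral neural tube and beta cells, was higher without reaching the threshold, with a log2 fold change of 0.55 (adjusted p = 9.79e-07, edgeR).

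NKX2-5 (chr5:173232109-173235206), the cardiac factor, was the most abundant NKX gene and the 1 that fell. It had 917, 788 and 693 normalized counts in untreated cells and 671, 639 and 594 in VPA-treated cells. The groups did not overlap, but untreated replicate 3 lay close to VPA-treated replicate 1, and the log2 fold change was -0.33 (SE 0.084, adjusted p = 0.00265, edgeR). The call was lost when libraries were scaled by their totals (-0.20, adjusted p = 0.0673) or by ribosomal protein genes (-0.06, adjusted p = 0.561). In RPKM it was 20.8 ± 2.9 and then 16.5 ± 1.0 (SD, n = 3 each). NKX3-2, a cartilage factor, and NKX2-3, of gut and spleen, did not pass the test, with log2 fold changes of 0.15 (SE 0.116) and 0.29 (SE 0.229).

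Of the POU genes the rarely counted ones rose and the abundant ones changed less. POU4F2 (chr4:146638893-146642474), a factor of retinal ganglion cells, was the member that passed the filter only through its VPA-treated libraries. Its normalized counts were 2.07, 2.09 and 5.25 in untreated cells and 23.0, 28.9 and 31.6 in VPA-treated cells, a log2 fold change of 3.10 (SE 0.374, adjusted p = 2.97e-07, edgeR). The size of this fold is uncertain, since it rests on 9 untreated counts in all and lay between 2.88 and 3.66 with a library left out. POU3F1 (chr1:38043829-38046793), of Schwann cells and skin, went from 38.3, 26.2 and 36.7 to 78.6, 74.2 and 63.2, a log2 fold change of 1.09 (SE 0.174, adjusted p = 1.24e-05, edgeR). It was 0.93 without untreated replicate 2.

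POU4F1 (chr13:78598362-78603552), the factor of sensory neurons, was the most abundant POU gene, with 2155, 1965 and 1925 normalized counts in untreated cells and 2981, 2771 and 2747 in VPA-treated cells. The groups were well apart, and the log2 fold change was 0.49 (SE 0.048, adjusted p = 1.40e-08, edgeR), a 1.41-fold increase. It was the 1 member with a mean over 1000 normalized counts that was higher. POU3F2 and POU3F3, factors of cortical neurons and their progenitors, had overlapping groups. POU3F2 had 898, 839 and 813 and then 849, 880.4 and 903, a log2 fold change of 0.05 (SE 0.054, adjusted p = 0.478, edgeR). POU3F3 had 621, 595 and 586 and then 636, 548 and 564, a log2 fold change of -0.04 (SE 0.064, adjusted p = 0.574, edgeR). POU4F3, known from hair cells of the inner ear, is listed at 0.

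All 5 tested LIM homeodomain genes were higher after VPA, with no overlap between the groups in any of them. Over all tested genes 32.9% were higher, and in 34.8% every VPA-treated library lay above every untreated one. Among those with a mean of 50 to 200 normalized counts 52.9% were higher. LHX9 (chr1:197912464-197935478), known from gonad and brain, was the 1 that reached the fold threshold, going from 41.4, 35.6 and 35.7 to 87.2, 85.7 and 94.8 normalized counts, a log2 fold change of 1.25 (SE 0.149, adjusted p = 2.63e-07, edgeR). LHX4, a factor of pituitary and motor neurons, was the most counted, with 279.5, 278 and 289.7 and then 461, 461 and 426, a log2 fold change of 0.67 (SE 0.070, adjusted p = 3.51e-08, edgeR). ACBD6, on the opposite strand over LHX4, had a log2 fold change of 0.07. LHX2, of eye and cortex, had a log2 fold change of 0.69 (adjusted p = 0.000147, edgeR), beside 0.72 for LHX2-AS1 on the opposite strand, which had 123 counts. LHX6, of cortical interneurons, was at 0.54 (adjusted p = 4.98e-05, edgeR). LHX8, of cholinergic neurons and oocytes, had the smallest, 0.30 (SE 0.098, adjusted p = 0.0107, edgeR), and DESeq2 gave it an adjusted p of 0.124. LHX3 had 8 counts in all and LHX5 none.

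MYT1 (chr20:64164452-64242253), a zinc finger factor of differentiating neurons, went from 78.7, 97.3 and 93.4 to 179, 215 and 193 normalized counts, a 2.18-fold increase. The groups did not overlap, and the log2 fold change was 1.12 (SE 0.114, adjusted p = 2.23e-08, edgeR). MYT1L, a repressor of non-neuronal genes in neurons, had 3 counts in the 6 libraries. So of this pair only MYT1 could be measured.

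**Figure D3:**
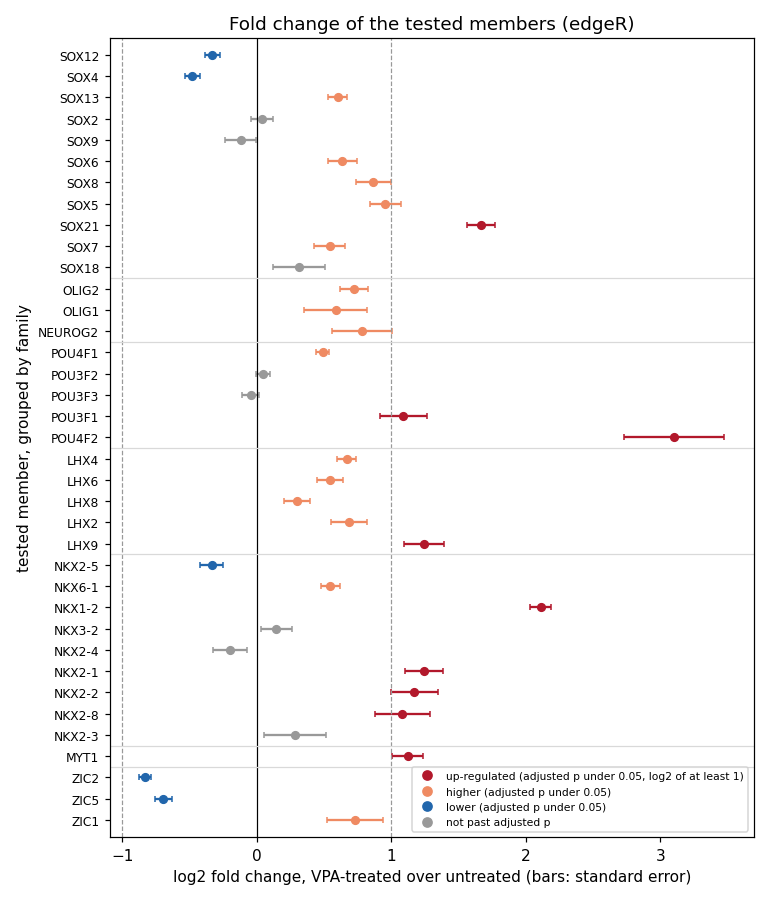
Log2 fold change of 37 of the 38 tested members, VPA-treated over untreated, with bars of 1 standard error, grouped by family, with dashed lines at the fold threshold. The 9 up-regulated members drawn lie past 1, with NKX2-8 at 1.08 and NKX1-2 at 2.11, and the 5 that fell lie between -0.83 and -0.33.

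Proneural bHLH genes were hardly counted in these cells. Of the 15 bHLH members 3 passed the filter, and all 3 were higher, beside 32.9% of all tested genes. That share was 40.9% among tested genes under 50 normalized counts and 52.9% between 50 and 200. OLIG2, the factor of motor neuron and oligodendrocyte progenitors, had 142, 122 and 123 normalized counts in untreated cells and 237, 211 and 192 in VPA-treated cells, a log2 fold change of 0.72 (SE 0.105, adjusted p = 3.58e-06, edgeR). OLIG1, 40956 bases away on chromosome 21, had 22.8, 24.1 and 16.8 and then 25.9, 30.8 and 39.3, a log2 fold change of 0.59 (SE 0.234, adjusted p = 0.0331, edgeR). That call is weak: the adjusted p was 0.143 without untreated replicate 3, 0.0569 and 0.183 without VPA-treated replicates 2 and 3, and 0.209 in DESeq2. NEUROG2, which starts neurogenesis in cortex and spinal cord, had 17.6, 16.7 and 24.1 and then 34.5, 35.6 and 30.6, a log2 fold change of 0.78 (SE 0.223, adjusted p = 0.00437, edgeR, and 0.0726 in DESeq2). The transcript NEUROG2-AS1 overlaps it on the opposite strand and had about as many reads, 158 against 161, with a log2 fold change of 1.11.

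NEUROD1, a factor of neuronal differentiation and of beta cells, was under the filter, with 1, 1 and 0 raw counts in untreated cells and 9, 8 and 7 in VPA-treated cells. The ratio was 11.0, with a 95% interval of 2.74 to 96.3 that covers counting error only (exact Clopper-Pearson). Without the filter edgeR gave an adjusted p of 0.000194 and DESeq2 gave 0.0164. CERKL overlaps NEUROD1 on the same strand and had a log2 fold change of 2.07. OLIG3, a dorsal neural tube factor, had 0, 0 and 2 and then 5, 3 and 10 raw counts, a ratio of 8.27 with an interval of 1.98 to 73.5. Its adjusted p was 0.00339 in edgeR without the filter and 0.0585 in DESeq2. ASCL2, of trophoblast and intestinal stem cells, had no count in untreated cells and 3, 2 and 1 counts in VPA-treated cells. Against a floor of 3 counts over the untreated group the ratio was 1.84, which leaves out the counting error of the VPA-treated counts. Its adjusted p was 0.0485 in edgeR without the filter, and DESeq2 gave none.

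The remaining low members gave no call. NEUROG1 had 1 count in untreated and 8 in VPA-treated cells, a ratio of 7.35 with an interval of 0.986 to 326. NEUROD2 had 2 and 7, ASCL5 had 7 and 8, NKX6-2 had 8 and 11, and SOX15 had 10 and 5. SLC25A48, on the strand opposite to NEUROG1, had a log2 fold change of 1.17, and MPDU1, opposite to SOX15, of -0.78. NEUROD4 had 2 counts, both in untreated cells. Changes in these genes were not detectable at this depth.

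**Figure D4:**
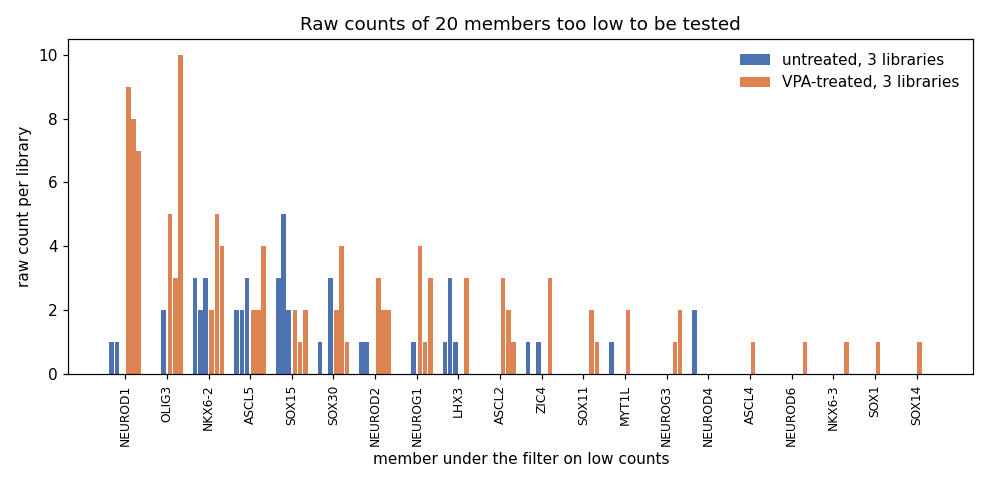
Raw counts per library (bars from 0) of 20 of the 21 members with counts that did not pass the filter, untreated in blue and VPA-treated in orange, in order of their total. NEUROD1 and OLIG3 stand out with up to 9 and 10 counts in a VPA-treated library, and every other member has 5 or fewer in each library.

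More members were counted after VPA. The number of members with any count was 48, 44 and 46 for untreated and 51, 52 and 51 for VPA-treated libraries, so the means differed by 5.33 (p = 0.1 in a two-sided exact permutation test, the smallest this design allows). There were 9 members that no untreated library and at least 1 VPA-treated library counted, and 1 (NEUROD4) the other way round, which is 13.0% and 1.45% of the 69 members beside 6.26% and 2.47% of all listed genes. Over all listed genes the numbers were 20719 to 20916 in untreated and 22279 to 22425 in VPA-treated libraries. With at least 10 counts the members numbered 37 in each untreated library and 38 or 39 in the VPA-treated ones, beside 14545 to 14646 and 15501 to 15567 of all listed genes.

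The direction of change went with the level of the gene. Of the 24 tested members with a mean under 200 normalized counts, 9 were up-regulated and none was lower, beside 6.32% lower among all tested genes under 50 and 10.6% between 50 and 200. In the class of 50 to 200 it was 7 of 17 up-regulated, beside 24.3% of all tested genes in that class, and under 50 it was 2 of 7, beside 29.4%. In the class of 200 to 1000 it was 1 of 9 (NKX1-2), beside 5.78%. Of the 5 members with a mean over 1000, 4 were lower (SOX4, SOX12, ZIC2 and ZIC5), beside 57.4% of all tested genes in that class. Over all tested genes the median log2 fold change fell with level, at 0.39, 0.34, 0.01 and -0.15 in these classes. The members' median was 0.73, 0.87, 0.05 and -0.48, and so was highest in the class of 50 to 200. The fold changes of the members therefore stand beside a background that itself depends on level.

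**Figure D5:**
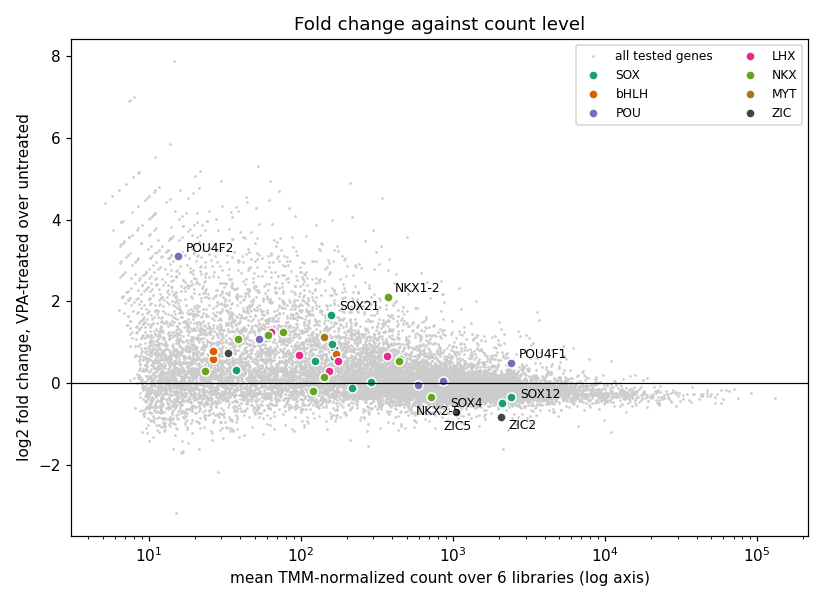
Log2 fold change against the mean normalized count over 6 libraries (log axis) for all tested genes in grey and 37 of the 38 tested members in color by family. NKX1-2 and SOX21 lie well above 0, as does POU4F2, which has under 10 counts in each untreated library, and SOX4, SOX12, ZIC2 and ZIC5 lie below 0 at the right, where POU4F1 is the exception at 0.49.

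Genes that act with these factors were counted from lists outside the rule. The shares over all tested genes were 32.9% higher, 30.0% lower and 12.0% up-regulated. Higher genes made up 40.9% of those under 50 normalized counts and 52.9% of those between 50 and 200. Of the 14 bHLH partners and inhibitors, all tested, 5 were higher and 4 lower with a median log2 fold change of 0.05, and 1 was up-regulated, HES5, a Notch target that holds progenitors back, at 1.02 (adjusted p = 0.00209, edgeR). ID2, an inhibitor of E protein dimers, was higher at 0.67, HEYL at 0.74, and HES1 was lower at -0.61. Of 15 other neural bHLH and zinc finger factors 9 were tested, 5 were higher and 4 did not pass, with ATOH1 at 1.97 and ATOH8 at 2.03. ATOH7, also higher, passed the filter only through its VPA-treated libraries, with 13 untreated and 34 VPA-treated counts. Of the 9 Notch receptors and ligands 8 were tested, 6 were higher and 1 lower, with JAG2 at 1.26, NOTCH3 at 1.13 and DLL1 at 1.05.

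Of the 6 GLI family genes, zinc finger relatives of ZIC, 5 were higher and 1 lower, with GLIS3 at 1.58 and GLI1 at 1.42. Of the 11 LIM homeodomain relatives and cofactors 8 were tested, 4 were higher and 3 lower. LMO2 was at 1.42, while LDB1, the adaptor that LIM homeodomain proteins need, was lower at -0.16 and ISL1 at -0.38. HES5 and LDB1 were named after their values were seen. Of the 8 other POU genes 4 were tested, with 1 higher and 1 lower (POU2F1, -0.19).

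Cell type markers were read beside these values, and beside the same shares of 32.9% higher and 30.0% lower over all tested genes. Their sums add counts over genes of unlike length, so the most counted genes weigh most. Of the 10 kidney lineage markers 6 were tested, 1 was higher (PAX2, log2 fold change 2.26) and 4 were lower, EYA1 at -0.68 among them, and their summed normalized count was 3609 to 3866 in untreated and 2991 to 3087 in VPA-treated libraries. CDH16, of mature tubules, is at 0, and PAX8 had 2 counts. Of the 12 neuron markers 9 were tested, 8 were higher and 1 did not pass. GAP43 was at 2.88, NEFL at 1.06 and NEFM at 0.87. SNAP25, 1 of the 8, passed the filter only through its VPA-treated libraries, with 6 untreated and 57 VPA-treated counts. The sum over the neuron markers was 5627 to 5958 in untreated and 10995 to 11706 in VPA-treated libraries. NEFM made up most of this sum, at a mean of 4348 normalized counts and then 7952. ELAVL3 had 2 counts. Of the 8 neural progenitor markers 6 were tested, with NES higher at 2.01 and HES5 at 1.02, and 3 lower, PAX6, CDH2 and VIM. The sum over this list was 14611 to 14935 in untreated and 12636 to 13064 in VPA-treated libraries. Most of it was VIM, at a mean of 10739 normalized counts and then 8931. Of the 8 oligodendrocyte markers 3 were tested, with 2 higher (MBP 1.01, UGT8 0.42) and CNP lower, while MOG had 5 counts and MAG 4. The sums were 3120 to 3200 and 2695 to 2831, most of it CNP, at a mean of 2573 and then 1934.

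Of the 8 neural crest markers 7 were tested, with 3 higher (FOXD3 0.65 and PAX7 1.71 among them) and 2 lower (TFAP2A -0.85 among them), and sums of 3785 to 4177 and 3273 to 3506. TFAP2B is at 0. Of the 6 blood markers 1 was tested and did not pass, and the sums were 19.7 to 35.7 and 36.4 to 46.0. Of the 5 endothelial markers 2 were tested and up-regulated, KDR at 3.26 and VWF at 3.79. VWF passed the filter only through its VPA-treated libraries, with 3 untreated and 50 VPA-treated counts, so the size of its fold is uncertain. The sums were 11.4 to 22.0 and 136 to 169.5, while CDH5 had 7 counts and PECAM1 5. The part of these markers in the changes of the transcription factors was not tested. In bulk RNA, more cells with a transcript and more transcript per cell cannot be told apart.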

How the data were processed

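RNA-seq libraries of HEK293T cells, 3 untreated and 3 VPA-treated (1 mM, 1 day), were compared. Adapters and poor reads were removed by the authors with SOAPnuke, STAR (2.7.10b in the submitters' processing notes) placed the rest on hg38, and htseq-count (HTSeq 2.0.1 in those notes, a later release in the methods) gave reads per gene. The deposited values are these raw counts, without normalization. The annotation and strand setting of the counting are not given in the sources used here. The 5 summary lines were left out, with reads off any gene at 6.80% to 7.69%, ambiguous reads at 1.97% to 2.10% and reads without a unique place at 2.81% to 2.92% of those listed.

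The test was edgeR's, version 4.0.16 under R 4.3.3 (TMM, filterByExpr with a count minimum of 10, robust quasi-likelihood fit, condition as the one term, prior count 0.125), with Benjamini-Hochberg adjustment over 15298 genes. The common biological coefficient of variation was 3.83%. Standard errors (SE) came from the fold change over the square root of its F statistic. Libraries of a group differed by more than sampling noise (chi-square per gene of 1.62 to 4.80). RPKM was computed from TMM-normalized counts with GENCODE 44 exon lengths, which may differ from the authors' gene models. Coordinates and promoters are from RefSeq on GRCh38.p14, with 49 of 69 members in the promoter table. The test was checked on simulated counts. Intervals cover counting error only, and the floor leaves out that of the VPA-treated counts.

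Alternatives were DESeq2 1.42.0, other scalings and filters, glmTreat, a replicate block and leaving out each library. Members, gene lists and tests were chosen with earlier results of these data known. Members past both thresholds were named with the count in every library, then the most counted member of each family, then other members past the adjusted p with their fold change, untested members with their summed counts, and up to 3 genes of smallest p together with markers at 0 from each further list. Promoters were shown by smallest p, leaving out genes on chromosome 8. Per-library values of further members, members that did not pass and overlapping genes were added after values were seen. SNAP25, ATOH7 and the genes that make up most of a marker sum were also named after their values were seen. Some genes are not reported here by name, though counts and sums include them. Other data of the study were not analysed here.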

Additional observations from a re-analysis of the deposited data

How the results depend on the processing

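Over the 38 tested members 487 comparisons with an alternative were made, of which 8 changed direction, and of the others 3 lost and 8 gained the call of up-regulated. The adjusted p alone was lost in 10 comparisons (OLIG1 in 4, NKX2-5 in 2, and LHX8, NEUROG2, SOX12 and ZIC1 in 1 each) and gained in 8. POU3F2 gained it with totals and with ribosomal protein scaling. NKX2-3, NKX3-2, POU3F3, SOX18 and SOX2 gained it with ribosomal protein scaling, SOX2 at 0.31 (adjusted p = 0.00335, edgeR). NKX2-4 gained it, as lower, without untreated replicate 3. The 10 up-regulated members became 3 (NKX1-2, SOX21 and POU4F2) with glmTreat, which asks for more than the threshold, 14 with ribosomal protein scaling, and 9 to 11 with a library left out. The 5 lower members became 3 with ribosomal protein scaling, under which the median over all tested genes moves from 0.0058 to 0.28 (log2), and it moves to 0.14 when libraries are scaled by totals. With ribosomal protein scaling NKX2-5 and SOX12 were both at -0.06 (adjusted p of 0.561 and 0.446, edgeR). With library totals NKX2-5 had an adjusted p of 0.0673 (edgeR). Relative to the median both were at -0.34, and 30 members lay above and 8 below under each of the 4 scalings. A scaling shifts all genes by nearly the same amount. Positions relative to the median could therefore hardly differ between scalings, and they do not test the calls. Among genes past the adjusted p the higher ones were 52.3% with TMM, 73.8% by totals and 91.8% by ribosomal proteins, and among members 83.3%, 86.7% and 91.2%. With a library left out there were 24 or 25 higher and 5 or 6 lower members. The difference in members counted was 1.33 with at least 10 counts. Over all genes the up-regulated count went from 1833 to 974 when the mean had to reach 50 counts and 1149 with glmTreat, and the down-regulated count from 77 to 20 and 8 there, to 38 by totals, 17 by ribosomal proteins and 162 without the filter.

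Directions changed in genes that had not passed the test in the main fit. NKX2-4 was at 0.077 by ribosomal proteins and POU3F3 at 0.088 by totals. SOX9 was at 0.012 by totals and 0.16 by ribosomal proteins. With a library left out SOX9 lay between -0.23 (without untreated replicate 3) and 0.021 (without untreated replicate 1). SOX2 was at -0.024 and -0.0033 without untreated replicates 2 and 3. POU3F3 was at 0.23 with ribosomal protein scaling, past the adjusted p (0.00388, edgeR) but under the median of all genes there. The changes by scaling went with the shift of that median. Relative to it NKX2-4 was at -0.20, POU3F3 at -0.05 and SOX9 between -0.13 and -0.12 under each scaling. The cause of the changes with a library left out was not tested.

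With the replicate block 10 members were up-regulated, 0 down-regulated, 25 higher and 5 lower, as without it. Same-numbered libraries deviated together at correlations of 0.13, 0.018 and 0.071, and those of other pairs between -0.098 and 0.031, so the numbers are not read as a pairing. Every library correlated best with its own number except untreated replicate 2, a hint from the data and not the design.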
